A study of Mus musculus with 14 samples.

Results

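The mouse Cyp2a genes and Cyp2g1 encode cytochrome P450 enzymes that lie in a cluster on chromosome 7, and 5 of them are considered here: Cyp2a4, Cyp2a5, Cyp2a12, Cyp2a22 and Cyp2g1. Their probes were those whose RefSeq accession on the array maps to these symbols, which gave 5 of the 39429 probes on the array, for 4 of the 5 genes (of 19751 genes named on it). Cyp2a4 had 2 probes, Cyp2a12, Cyp2a22 and Cyp2g1 had 1 each, and no probe mapped to Cyp2a5, which was therefore not analysed here. RNA came from the livers of outbred CD-1 mice in 6 groups: males and females aged 3 wk (pools of 5 livers), 4 wk and 8 wk (pools of 6 livers). Each of 14 two-colour arrays set 2 pools against each other, with 2 arrays of opposite dye orientation for every comparison: male over female at 3 wk (M3/F3), 4 wk (M4/F4) and 8 wk (M8/F8), and 8 wk over the younger age in males (M8/M3, M8/M4) and in females (F8/F3, F8/F4). The design asks when between weaning and young adulthood the sexes come to differ, and in which sex expression changes.

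Cytochrome P450 enzymes insert oxygen into lipophilic substrates, with electrons passed on by P450 oxidoreductase. The product of Cyp2a4 is a testosterone 15-alpha-hydroxylase, and that of Cyp2a5, its nearly identical paralogue, a coumarin 7-hydroxylase that also acts on nicotine. The product of Cyp2a12 hydroxylates steroids and bile acids at the 7-alpha position, Cyp2g1 is best known from the olfactory mucosa, and Cyp2a22 has been little characterised. In rodent liver the sex difference of many P450 genes is set by the pattern of pituitary growth hormone release, which is pulsatile in adult males and near continuous in females.

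The probe sequences are given first because sequence shared between paralogues limits what a probe can tell apart. The sequences held here were those of 3 members and of the pseudogene Cyp2a21-ps, which lies between Cyp2a22 and Cyp2a12. Capitals mark the bases at which the Cyp2a4 and Cyp2a21-ps probes differ within their overlap.
Cyp2a4 probe A_55_P2007326: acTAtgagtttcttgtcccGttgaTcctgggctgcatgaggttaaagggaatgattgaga
Cyp2a21-ps probe A_55_P1997585: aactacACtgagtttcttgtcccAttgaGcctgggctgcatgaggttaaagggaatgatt
Cyp2a22 probe A_55_P2060138: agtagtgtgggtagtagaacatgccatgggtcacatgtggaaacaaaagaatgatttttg
Cyp2g1 probe A_51_P137452: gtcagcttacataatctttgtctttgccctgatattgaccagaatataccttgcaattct
The Cyp2a4 and Cyp2a21-ps probes overlapped over 56 bases, of which 52 were identical. Counted from 1 at the first base of the Cyp2a4 probe as printed, the differences were T3A, A4C, G20A and T25G, with the Cyp2a4 base first. The Cyp2a22 and Cyp2g1 probes shared no such stretch with them: the best ungapped overlap of any other pair of these 4 probes held 23 identical bases of 58. Whether the Cyp2a4 probes also bind Cyp2a5 transcripts could not be read from the sequences used here, so their values are those of Cyp2a4 together with whatever near-identical RNA they bind.

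Upstream sequence was compared because neighbouring members differed in pattern. The 250 bases before the annotated start are shown from RefSeq (GRCm38.p6) for the 4 genes listed there. Capitals mark the bases that differ, in an alignment with gaps, between Cyp2a4 and Cyp2a5 and between Cyp2a12 and Cyp2a22.
Cyp2a4 (chr7:26306942-26307191, plus strand): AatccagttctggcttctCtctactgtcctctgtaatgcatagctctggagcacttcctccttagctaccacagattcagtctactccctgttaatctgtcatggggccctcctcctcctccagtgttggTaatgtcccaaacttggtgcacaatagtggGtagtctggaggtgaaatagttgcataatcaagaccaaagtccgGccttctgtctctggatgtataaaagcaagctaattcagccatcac
Cyp2a5 (chr7:26835089-26835338, plus strand): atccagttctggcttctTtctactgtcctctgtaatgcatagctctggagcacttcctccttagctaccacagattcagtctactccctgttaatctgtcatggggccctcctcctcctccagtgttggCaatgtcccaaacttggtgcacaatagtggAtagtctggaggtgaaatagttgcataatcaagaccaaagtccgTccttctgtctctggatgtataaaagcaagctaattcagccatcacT
Cyp2a12 (chr7:27028840-27029089, plus strand): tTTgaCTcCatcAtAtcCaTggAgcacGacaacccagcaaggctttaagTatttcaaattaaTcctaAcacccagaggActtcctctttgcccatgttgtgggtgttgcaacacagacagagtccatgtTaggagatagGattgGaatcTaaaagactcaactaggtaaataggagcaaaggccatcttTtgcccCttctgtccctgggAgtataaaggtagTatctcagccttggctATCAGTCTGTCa
Cyp2a22 (chr7:26939387-26939636, minus strand): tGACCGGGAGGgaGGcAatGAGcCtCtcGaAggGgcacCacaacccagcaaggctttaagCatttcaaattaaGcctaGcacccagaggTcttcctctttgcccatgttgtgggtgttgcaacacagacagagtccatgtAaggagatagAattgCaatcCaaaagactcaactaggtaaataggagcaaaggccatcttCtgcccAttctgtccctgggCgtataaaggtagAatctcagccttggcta
The Cyp2a4 and Cyp2a5 stretches were identical at 245 of 249 aligned bases. Those of Cyp2a12 and Cyp2a22 were identical at 216 of 239, while Cyp2a4 and Cyp2a22 shared 138 of 232. TATAAA, searched on both strands, was present in all 4, beginning 28 bases before the start in Cyp2a4 and Cyp2a22, 29 in Cyp2a5 and 39 in Cyp2a12, and in 12.4% of the 32817 promoters in the table. The letters TTATGTAA and TTACGTAA (D-box forms bound by Dbp and Tef), CAAAGTCCA (an HNF4 form) and TTCNNNGAA (a STAT form), also searched on both strands, were found in none of the 4 windows and in 0.817%, 0.113%, 0.384% and 7.01% of all promoters. Only these exact letters were counted. The Cyp2a4 and Cyp2a5 windows hold caaagtccg, which differs from the HNF4 form in its last base. Sites with other letters were not looked for, so their absence is not shown.

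Sex labels were borne out on all 6 male over female arrays, where Ddx3y, Uty, Eif2s3y and Kdm5d were higher in the male channel and Xist in the female channel. Between 55.2% and 77.2% of spots in a channel were well above background, and no spot was saturated. The 8 hepatocyte markers (Alb, Ttr, Apoa1 and others) were measurable in every comparison. The 14 arrays lay on 4 slides scanned on 2 days, with each comparison's 2 arrays on different slides, so each array's value is also its within-slide value. The ratios went around loops of 4 arrays as they would if the 2 pools of a group were used again on several arrays, so comparisons that name the same group are not independent. In pooled liver RNA, fewer cells of a type and less RNA per cell cannot be told apart.

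Across the 6 groups the members followed 3 courses. Cyp2a4 and Cyp2g1 were highest in 8 wk females, with 4 wk females next and the 3 wk females and all males low. Cyp2a22 overlapped between the sexes at 3 wk and was lowest in 8 wk males. No comparison passed the main test for Cyp2a12. Levels are given for each pool as log2 differences from the mean of the 6 groups, worked out from the ratios.

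**Figure D1:**
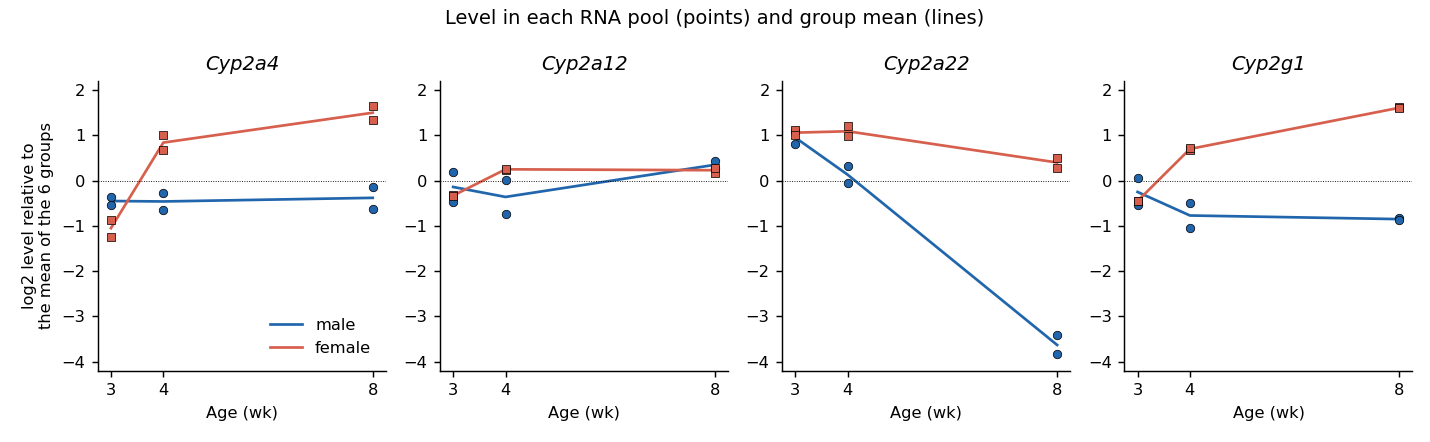
Level of each gene (vertical axis, log2 relative to the mean of the 6 groups) against age in weeks, with male pools as blue circles, female pools as orange squares and lines through the group means (Cyp2a4 by its brighter probe, n = 2 pools per group). The female lines of Cyp2a4 and Cyp2g1 climb from 3 to 8 wk, the male line of Cyp2a22 falls to -3.63 at 8 wk, and all Cyp2a12 group means lie between -0.36 and 0.35.

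Cyp2a4, by its brighter probe A_55_P2007326, stood at 1.35 and 1.65 in the pools of 8 wk females. The pools of 4 wk females were at 0.67 and 1.01. Male pools were at -0.36 and -0.53 at 3 wk, at -0.65 and -0.27 at 4 wk and at -0.15 and -0.62 at 8 wk. The 3 male groups overlapped one another, both older female groups lay above every male pool and did not overlap each other, and the 3 wk females, at -0.86 and -1.24, lay below every male pool. Processed signals of this probe ran from 54300 to 90000 over the 6 channels of 8 wk females and from 11600 to 22700 over those of 8 wk males.

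Cyp2g1 had the same order of its female groups, with 1.62 and 1.61 in the pools of 8 wk females and 0.67 and 0.73 in those of 4 wk females. The 3 wk females were at -0.46 and -0.44, inside the range of the 3 wk males (0.05 and -0.54). The males were at -1.05 and -0.49 at 4 wk and at -0.83 and -0.86 at 8 wk, so that these male groups overlapped. The female groups did not overlap each other at any of the 3 ages.

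Cyp2a22 was at 1.11 and 1.01 in 3 wk females, at 0.98 and 1.2 in 4 wk females and at 1.09 and 0.81 in 3 wk males, and these 3 groups overlapped. The 8 wk females, at 0.29 and 0.50, and the 4 wk males, at -0.06 and 0.33, also overlapped each other and lay below the first 3 groups. The 8 wk males were at -3.42 and -3.84, far below all others. Processed signals of the 8 wk male channels ran from 16 to 36, and 5 of the 6 were well above background, the exception being the male channel of the second M8/F8 array. The 8 wk female channels ran from 296 to 581.

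Cyp2a12 pools lay between -0.73 and 0.43. Its 4 wk male pools differed from each other by more than its group means did (-0.73 and 0.01), and its 3 wk male pools lay at 0.19 and -0.48. The order of its groups was therefore not resolved by these pools.

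At 3 wk no member passed the test between the sexes. A probe was called changed on 3 conditions: an adjusted p of limma under 0.05 (over all probes and the 7 comparisons), a change of more than 1.5-fold, and clear signal on both arrays in 1 or both groups. By this rule 0 of 5 member probes were called in M3/F3, beside 0.464% of all probes tested. At an unadjusted limma p below 0.05 there was 1, the brighter Cyp2a4 probe, and the error-weighted average of both arrays at p below 0.0001 also called 1. That probe read 0.51 and 0.84 (log2 M3/F3) on the 2 arrays, higher in males on both, with a mean of 0.68 (95% interval 0.04 to 1.31, adjusted p = 0.162). The other Cyp2a4 probe averaged 0.57 (adjusted p = 0.238). For Cyp2a22 the mean was -0.09 (95% interval -0.61 to 0.43), for Cyp2g1 0.21 (-0.31 to 0.73) and for Cyp2a12 0.19 (-0.47 to 0.85), which leaves room for differences of up to these limits.

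At 4 wk, 4 of 5 member probes, from 3 genes, were called lower in males, beside 1.44% of all probes tested (0.89% lower). Cyp2g1 read -1.86 and -1.13 on the 2 M4/F4 arrays, for a mean of -1.50 (SE 0.22), or 2.82-fold lower in males (adjusted p = 0.00556). The brighter Cyp2a4 probe read -1.46 and -1.16, a mean of -1.31 (SE 0.27, 2.48-fold, adjusted p = 0.0198). Every one of these array values was lower in males. The second Cyp2a4 probe averaged -1.17 (adjusted p = 0.0307). Cyp2a22 read -1.31 and -0.59, a mean of -0.95 (1.93-fold, adjusted p = 0.0308), and this call was lost in 18 of 29 alternatives, among them no dye term (adjusted p = 0.104), shared pools in the covariance (0.061) and normexp with loess (0.0665). Cyp2a12 read -1.02 and -0.21 and did not pass (mean -0.62, adjusted p = 0.217). Both M4/F4 arrays had the same sign for each called probe, and the 4 fitted means were -0.81 to -1.25 without the first array, but with fewer arrays in the fit 0 calls were made without the first M4/F4 array, 1 without the second and 2 without either array of M3/F3, M8/M3 or F8/F4. There was 1 call (Cyp2g1) with the slide as a block or with p-values adjusted within the comparison. On the same arrays 3 of the 7 pericentral hepatocyte markers (Oat, Lgr5 and Rhbg) were called lower in males and none higher, with summed signals of 112000 to 172000 in 4 wk male channels and 167000 to 224000 in 4 wk female channels. Among the other marker lists the macrophage marker Marco was called lower in 4 wk males, and Spp1 (bile duct) and Alas2 (erythroid) higher. The part of these in the member ratios was not tested.

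At 8 wk, 4 of 5 member probes were again called lower in males, beside 6.31% of all probes tested (3.49% lower). Cyp2a22 gave the widest difference, with -3.89 and -4.21 on the 2 M8/F8 arrays, the male channel of the second not being well above background. Its fitted mean was -4.05 (SE 0.22, adjusted p = 1.78e-04), 16.5-fold less in males by the measured signals. With normexp background correction (offset 50 added to all signals) and loess together, the same contrast was -2.76 (adjusted p = 2.36e-04), and the call was lost where both groups had to be well above background. Cyp2g1 read -2.52 and -2.37, a mean of -2.44 (SE 0.22, 5.43-fold, adjusted p = 8.89e-04). The brighter Cyp2a4 probe read -1.66 and -2.23, a mean of -1.95 (SE 0.27, 3.86-fold, adjusted p = 0.00435), and the second -1.47 and -1.98 (mean -1.72, adjusted p = 0.00709, and 0.0744 without the second M8/F8 array). All values of these 4 probes were below 0. Cyp2a12 read 0.27 and -0.01, with a 95% interval for the mean of -0.53 to 0.79.

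**Figure D2:**
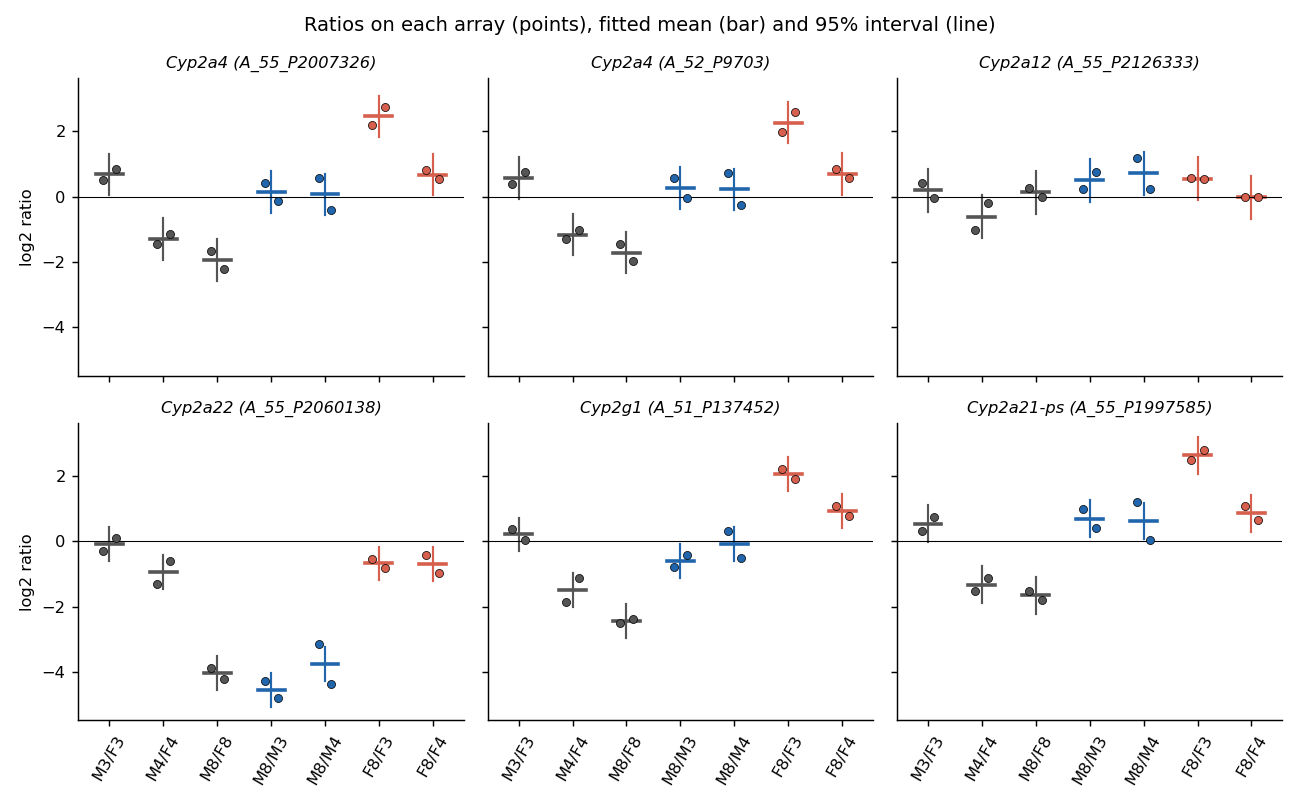
Log2 ratio (vertical axis) of the 5 member probes and of the Cyp2a21-ps probe in the 7 comparisons (horizontal axis), with both arrays as points, the fitted mean as a bar and its 95% interval as a line (grey, male over female; blue, older over younger males; orange, older over younger females). The male over female values at 8 wk are below 0 for all but Cyp2a12, while those of Cyp2a4 at 3 wk are above 0, and the blue values are far below 0 for Cyp2a22 alone among the members.

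Macrophage markers also differed between the 8 wk sexes: 4 of 7 (Clec4f, Adgre1, Marco and Timd4) were called lower in males and none higher, with summed signals of 19100 to 27600 in the 8 wk male channels and 30700 to 45600 in the 8 wk female channels. Of the pericentral markers 1 of 7, Oat, was lower in males (summed signals 159000 to 261000 against 215000 to 327000). The hepatocyte list had no called member, at 591000 to 904000 against 622000 to 978000. Of the periportal markers Cyp2f2 was higher and Gls2 lower in 8 wk males (summed signals 266000 to 399000 against 249000 to 453000), and erythroid Alas2 was higher and lymphocyte Cd3g lower. The part of these in the member ratios was not tested.

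In males, Cyp2a22 fell with age and no other member was called by the main test. In M8/M3, 1 of 5 member probes was called, beside 16.8% of all probes tested (8.56% lower), and in M8/M4 also 1 of 5, beside 10.1% (5.44% lower). Cyp2a22 read -4.30 and -4.82 in M8/M3, a mean of -4.56 (SE 0.22, 23.6-fold lower at 8 wk, adjusted p = 1.29e-04). In M8/M4 it read -3.15 and -4.38, a mean of -3.76 (13.6-fold, adjusted p = 2.16e-04). With normexp and loess these means were -2.63 and -2.60. Both ratios have 8 wk males as numerator, as M8/F8 does, so the 3 results are not independent of each other. No array set 4 wk against 3 wk directly, and the difference of the 2 ratios put Cyp2a22 of 4 wk males at -1.15 and -0.45 relative to 3 wk males in the 2 replicates. In M8/M3, 3 of 6 stellate cell and fibroblast, 3 of 6 erythroid and 2 of 7 macrophage markers were called lower at 8 wk, and 1 erythroid marker, Alas2, higher. Of the bile duct markers 2 of 5 were lower, as were sinusoidal Lyve1 and lymphocyte Cd3g. Higher at 8 wk were 3 of 6 periportal markers (Cyp2f2, Sds and Pck1), with summed signals of 123000 to 174000 at 3 wk and 266000 to 399000 at 8 wk, and 2 of 7 pericentral markers (Oat and Cyp2e1), with 98000 to 188000 and 159000 to 261000. Of the 8 hepatocyte markers Serpina1c and Tdo2 were higher and Alb lower. The summed stellate cell and fibroblast signal ran from 53300 to 97000 at 3 wk and from 34900 to 46800 at 8 wk, and the hepatocyte sum from 442000 to 807000 and from 591000 to 904000. In M8/M4, Lyve1, Cd3g, Krt19, 2 of 6 stellate cell and fibroblast, 3 of 6 erythroid and 2 of 7 macrophage markers, Alb and periportal Hsd17b13 were lower at 8 wk, and Alas2, Cyp2f2, Cyp2e1, Serpina1c and Tdo2 higher. Their part in the Cyp2a22 ratio was not tested.

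Cyp2a4 was not called in males by either ratio. The brighter probe read 0.42 and -0.14 in M8/M3, with a 95% interval of -0.50 to 0.78, and 0.56 and -0.42 in M8/M4, with an interval of -0.57 to 0.70. The replicates disagreed in sign in both. Cyp2g1 read -0.78 and -0.41 in M8/M3, lower at 8 wk on both arrays without passing (mean -0.59, adjusted p = 0.135), and 0.31 and -0.50 in M8/M4. Cyp2a12 read 1.19 and 0.22 in M8/M4 and did not pass (mean 0.71, adjusted p = 0.159), but was called higher with 6 group means (adjusted p = 0.0369).

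In females, Cyp2a4 and Cyp2g1 rose with age. In F8/F3, 3 of 5 member probes were called higher at 8 wk, beside 10.8% of all probes tested (5.31% higher), and in F8/F4 1 of 5, beside 5.41% (2.43% higher). The brighter Cyp2a4 probe read 2.19 and 2.75 in F8/F3, a mean of 2.47 (SE 0.27, 5.54-fold, adjusted p = 0.00176), and the second read 1.97 and 2.58 (4.83-fold). Cyp2g1 read 2.21 and 1.91, a mean of 2.06 (SE 0.22, 4.17-fold, adjusted p = 0.00164). All of these arrays showed more RNA at 8 wk. Between 4 and 8 wk Cyp2g1 read 1.08 and 0.78 (mean 0.93, 1.90-fold, adjusted p = 0.0336), a call that was lost with the replicate number as a block (adjusted p = 0.0529) and without either array of F8/F4 (0.194 and 0.156), F8/F3 (0.0646 and 0.0651) or M8/F8 (0.0593 and 0.0595). The brighter Cyp2a4 probe read 0.81 and 0.53 there and did not pass (adjusted p = 0.164). By the difference of the ratios, 4 wk females stood above 3 wk females by 1.37 and 2.22 for this Cyp2a4 probe and by 1.13 and 1.13 for Cyp2g1 in the 2 replicates.

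Cyp2a22 in females went the other way, without passing: -0.53 and -0.83 in F8/F3 (mean -0.68, adjusted p = 0.0939) and -0.41 and -0.97 in F8/F4 (mean -0.69, adjusted p = 0.09). It was called lower in 4 of 29 alternatives for F8/F3 and in 3 of 29 for F8/F4, among them 6 group means (adjusted p = 0.0177 and 0.0147) and without either M8/F8 array (0.0414 in F8/F3, 0.0397 and 0.0396 in F8/F4). Cyp2a12 read 0.56 and 0.54 in F8/F3 (mean 0.55, adjusted p = 0.277) and -0.02 on both F8/F4 arrays. Markers of other cells moved in the same comparisons. In F8/F3, 4 of 6 erythroid, 2 of 6 stellate cell and fibroblast and 1 of 7 macrophage markers were called lower at 8 wk, and 4 of 6 periportal hepatocyte markers higher, with periportal summed signals of 144000 to 284000 at 3 wk and 249000 to 453000 at 8 wk. Of the pericentral markers 1 of 7, Oat, was higher, with summed signals of 124000 to 249000 at 3 wk and 215000 to 327000 at 8 wk. Lower too were 1 of 5 bile duct (Sox9) and 1 of 6 sinusoidal endothelial markers (Lyve1). The summed stellate cell and fibroblast signal ran from 51200 to 115000 at 3 wk and from 43500 to 66000 at 8 wk. In F8/F4, 4 of 6 erythroid, 2 of 6 stellate cell and fibroblast (Col1a1 and Col3a1), 1 of 7 macrophage (Marco) and 1 of 5 bile duct markers (Sox9) were lower at 8 wk, and Oat and the hepatocyte marker Tat higher. Their part in the member ratios was not tested.

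The age change differed between the sexes for 3 of the 4 measured genes. As the log2 change of males minus that of females from 3 to 8 wk, 4 of 5 member probes were called, all below 0, beside 3.22% of all probes tested (1.55% lower). Cyp2a22 differed by -3.88 (SE 0.31, adjusted p = 0.00238 within this contrast), Cyp2g1 by -2.65 (SE 0.31, adjusted p = 0.00838) and the Cyp2a4 probes by -2.33 (SE 0.38, adjusted p = 0.0231) and -2.0 (adjusted p = 0.0376). The 2 replicates gave -3.77 and -3.99 for Cyp2a22, -2.99 and -2.32 for Cyp2g1, and -1.76 and -2.90 for the brighter Cyp2a4 probe. With normexp and loess Cyp2a22 was at -1.96 (adjusted p = 0.0289), Cyp2g1 at -2.55 and the Cyp2a4 probes at -2.29 and -2.05, so Cyp2a22 went from the largest of the 4 to the smallest. Of the age changes behind these differences, the fall of Cyp2a22 in males and the rises of Cyp2a4 and Cyp2g1 in females passed the test on their own. The calls of both Cyp2a4 probes were lost with the slide as a block (adjusted p = 0.0616 and 0.0819), and that of the second in 14 of 27 alternatives, among them the replicate block (0.0524) and background-subtracted intensities with loess (0.052). Both were also lost without either M8/M3 array or the second F8/F3 array, and without the first F8/F3 array the calls of the second Cyp2a4 probe (0.057) and of Cyp2g1 (0.0538) were lost. From 4 to 8 wk 1 of 5 was called, beside 1.34% of all probes tested (0.543% lower): Cyp2a22, at -3.07 (SE 0.31, adjusted p = 0.0102), or -1.92 with normexp and loess (adjusted p = 0.0474). Cyp2g1 was at -1.02 (adjusted p = 0.215), the brighter Cyp2a4 probe at -0.60 (0.57) and Cyp2a12 at 0.73 (0.494).

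The M8/M3 and F8/F3 arrays were on different slides and scan days, but the same quantity can be had from the male over female arrays of slides 1 and 2 as M8/F8 minus M3/F3. By that route Cyp2a22 was at -3.59 and -4.32 on the 2 slides, Cyp2g1 at -2.90 and -2.40, and the brighter Cyp2a4 probe at -2.18 and -3.07. The means of both routes lay within 0.30 log2 units of each other for each member probe. For 4 to 8 wk the route through slides 1 and 2 gave -2.58 and -3.62 for Cyp2a22. Both routes start from the same 4 groups, and the labels do not say whether the same pools were used in both. If they were, the routes must give the same value up to the error of the arrays. The second route is therefore not a separate measurement of the mice.

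**Figure D3:**
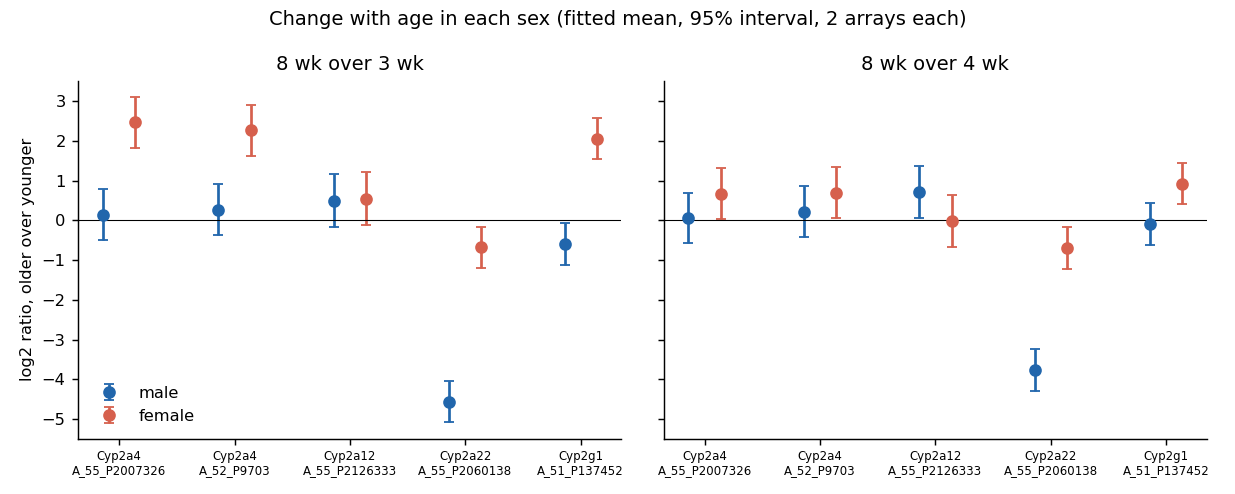
Fitted log2 change (vertical axis, with 95% intervals) to 8 wk, over 3 wk (left) or 4 wk (right), for each member probe, males in blue and females in orange, 2 arrays each. The male and female intervals are well apart for Cyp2a22 in both panels and for Cyp2a4 and Cyp2g1 in the left panel, and they overlap for Cyp2a12 in both.

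The 2 Cyp2a4 probes gave nearly the same ratios, and the Cyp2a21-ps probe ran with them but departed further, most in the male age ratios. The second Cyp2a4 probe differed from the brighter one by -0.22 to 0.26 over the 14 arrays (median 0.11, Pearson r = 0.998), and its values were a little closer to 0 where ratios were large. The Cyp2a21-ps probe differed from the brighter Cyp2a4 probe by -0.18 to 0.64 (median 0.21, r = 0.982). In M8/F8 the pseudogene probe averaged -1.66 (adjusted p = 0.00508) and in F8/F3 2.64 (adjusted p = 9.03e-04). In the male age ratios it lay above Cyp2a4 on all 4 arrays, with means of 0.69 (M8/M3) and 0.63 (M8/M4) that did not pass. With 52 of 56 overlapping bases shared, how much of its signal came from Cyp2a4 RNA cannot be told by these arrays.

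**Figure D4:**
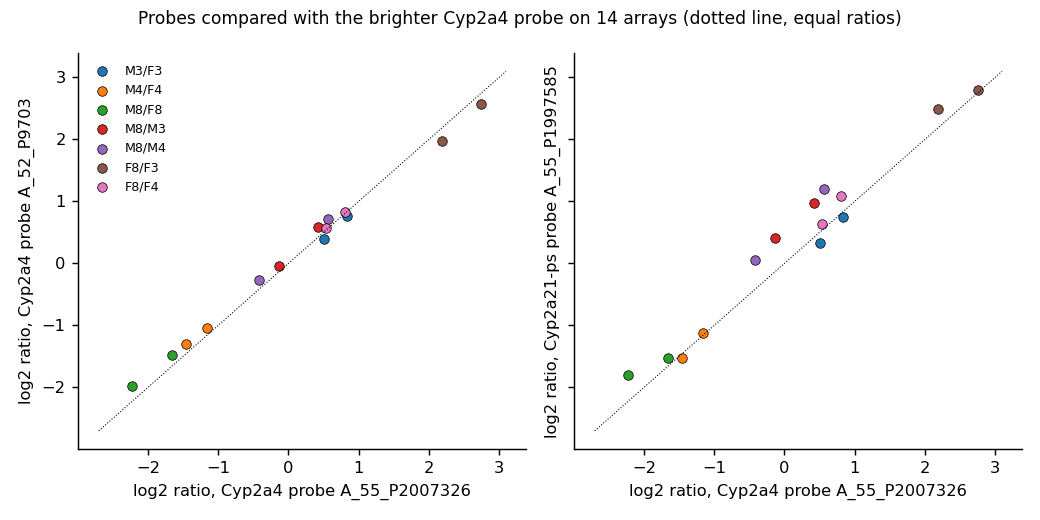
Log2 ratio of the second Cyp2a4 probe (left, vertical axis) and of the Cyp2a21-ps probe (right, vertical axis) against that of the brighter Cyp2a4 probe (horizontal axes) on the 14 arrays, coloured by comparison, with a dotted line of equal ratios. Points of both panels run along the line, and the points of the age comparisons lie above it for Cyp2a21-ps.

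Over the 14 arrays, which share 6 groups and 7 comparisons, Cyp2a4 and Cyp2g1 ratios ran closely together (Pearson r = 0.95), whereas Cyp2a22 ran with Cyp2a4 at r = 0.47 and with Cyp2g1 at r = 0.54. Cyp2a12 was at r = -0.30 with Cyp2a22, whose upstream bases are 90.4% identical to its own, and at 0.47 with Cyp2a4. Similar patterns were searched among 3652 probes of other named genes. Each was called in at least 1 comparison and well above background in at least 1 channel of every array. The patterns most like Cyp2a22 were those of Slc22a27 (r = 0.985), Slc22a29 (0.983) and Slc16a5 (0.983), with M8/F8 means of -5.55, -4.98 and -3.0. For Cyp2g1 they were Lhpp (0.978), Dhrs7 (0.977) and Zfp820 (0.975), with M8/F8 means of -1.06, -0.95 and -0.73. For Cyp2a4 they were Pop1 (0.972), Apol7a (0.958) and Rgs12 (0.952), with M8/F8 means of -0.39, -0.57 and -0.93, all smaller in size than that of Cyp2a4. For Cyp2a12 they were Rnu2-10 (0.835), C5ar2 (0.818) and Arrdc3 (0.809).

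The Cyp2 neighbours on chromosome 7 held genes of both directions. Of 8 neighbours with a probe, 6 were measurable, and in M8/F8 3 were lower in males and 1 higher, with a median of -1.26 beside 0 over all probes. Of all probes tested, 6.31% were called in that comparison. The lower ones were Cyp2b genes: Cyp2b9 at -4.55, Cyp2b13 at -2.73 and Cyp2b10 at -2.36. Like Cyp2a22 they fell with age in males (Cyp2b9 -3.97, Cyp2b13 -2.39 and Cyp2b10 -1.92 in M8/M3). Like Cyp2a4 and Cyp2g1 they rose in females (2.30 for Cyp2b13, 1.27 for Cyp2b9 and 0.96 for Cyp2b10 in F8/F3). Cyp2f2, the gene next to Cyp2a12 and a periportal marker, was higher in 8 wk males (1.00) and higher at 8 wk in both sexes (2.12 in M8/M3 and 0.95 in F8/F3). Cyp2t4, beyond it, was at 0.09 in M8/F8 and was not called in any comparison, and Cyp2s1, at the other end, was called only in M8/M3 (-0.80).

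**Figure D5:**
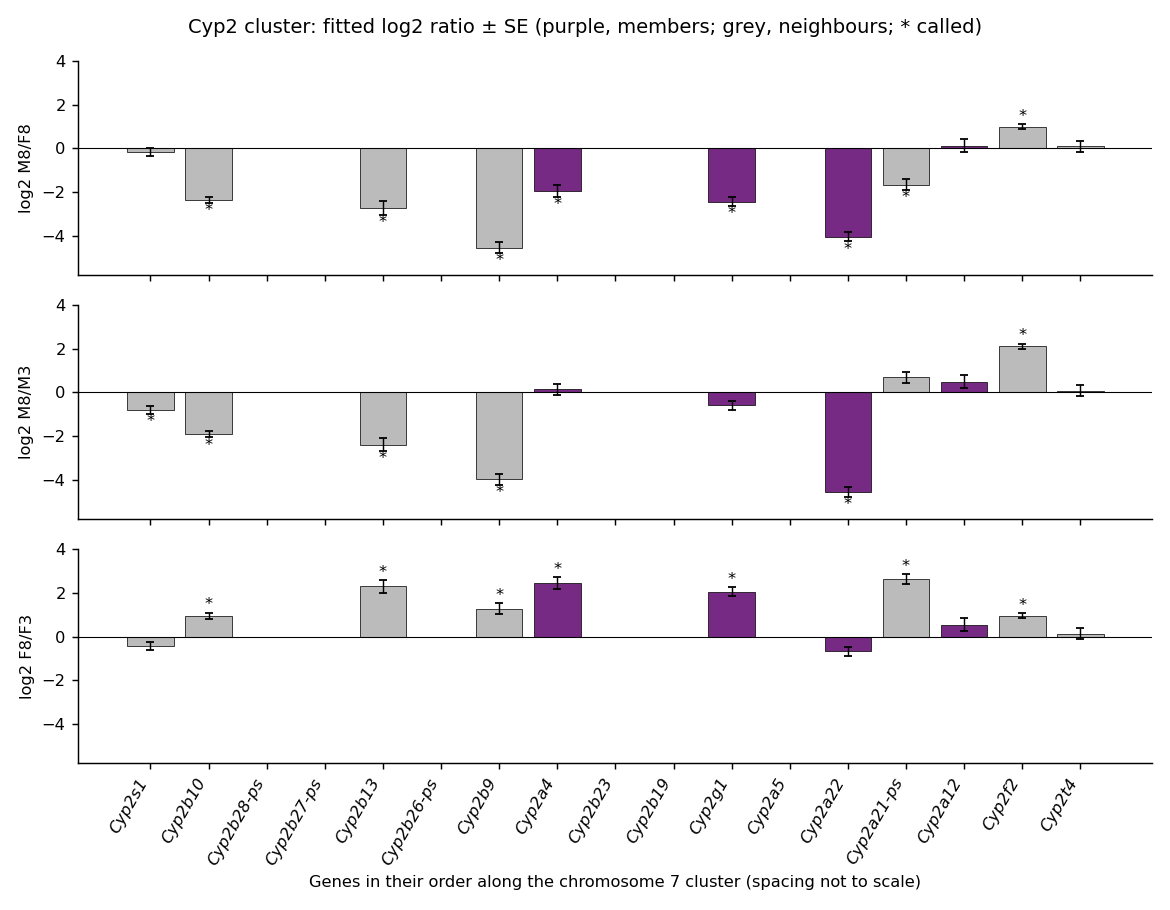
Fitted log2 ratio with SE (vertical axes) for M8/F8, M8/M3 and F8/F3 of genes in their order along the chromosome 7 cluster, members in purple, neighbours and the Cyp2a21-ps pseudogene in grey, and an asterisk on called ratios. Genes without a bar had no probe or were not above background. Bars from Cyp2b10 to Cyp2a21-ps are negative in M8/F8, Cyp2a12 is near 0 and Cyp2f2 is positive.

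Among 20 other steroid hydroxylases, reductases and dehydrogenases, 4 were higher in males and 5 lower in M8/F8, with a median of -0.06. The share called over all probes tested was 6.31%. Cyp3a44 was at -6.73 and Cyp17a1 at -2.66, while Cyp7b1, an oxysterol 7-alpha-hydroxylase, was at 2.81 and Cyp2d9, a testosterone 16-alpha-hydroxylase, at 2.27. Cyp17a1 rose in females (1.93 in F8/F3) and was at -0.29 in M8/M3 without a call, whereas Cyp3a44 fell in males (-6.46) and was at 0.36 in F8/F3 without a call. In M8/M3 6 of the 20 were higher and 3 lower, beside 16.8% of all probes tested. In F8/F3 3 were higher and 1 lower, beside 10.8%. The counts for M8/F8 and F8/F3 include Cyp3a16, whose probe also binds Cyp3a11 RNA according to the study. Of 8 steroid conjugation genes, Sult2a1, Sult2a2 and Sult3a1 were lower and Ugt2b1, Ugt2b5 and Ugt2b38 higher in 8 wk males. Sult3a1, a sulfotransferase, was at -7.81 in M8/F8 and at 3.88 in F8/F3.

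Of 9 genes of P450 electron supply and heme synthesis, 2 were called in M8/F8, beside 6.31% of all probes tested. Both were lower in males: Por, the P450 oxidoreductase, at -0.94, and Alas1, the rate-limiting enzyme of heme synthesis, at -1.57. Alas1 was also lower at 8 wk than at 3 wk in both sexes (-2.0 in M8/M3 and -0.93 in F8/F3), while against 4 wk it was lower in males (-0.82) and at 0.44 in females without a call (adjusted p = 0.169). Pgrmc1, of the same list, was called higher at 8 wk in both M8/M3 and F8/F3.

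Of 20 regulators linked to Cyp2a genes, 3 were called in M8/F8, beside 6.31% of all probes tested. All were lower in males: Cux2, a homeobox repressor, at -4.98, Esr1, the estrogen receptor, at -1.50, and Nr1i3, the xenobiotic receptor CAR, at -0.62. Cux2 was already lower in 4 wk males (-3.07), fell in males with age (-3.14 in M8/M3) and rose in females (2.2 in F8/F3). Ppargc1a was also called lower in 4 wk males, and Cebpb in 3 wk males. Hnf4a was at 0.03 in M8/F8 and was not called in any comparison. Dbp and Tef, the clock-driven activators of the PAR family, were higher at 8 wk in all 4 age comparisons (Dbp 2.75 to 2.98, Tef 1.26 to 1.45). The 2 M8/F8 arrays disagreed in sign for Dbp (-1.65 and 0.47). The part of any regulator in the member ratios was not tested.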

How the data were processed

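Expression was measured in 14 two-colour Agilent arrays of pooled CD-1 mouse liver RNA, labelled with red and green dyes in both orientations. Per the file headers, the authors extracted spots with Agilent Feature Extraction 10.7.1.1 and deposited log10 ratios of red over green after linear and LOWESS dye normalization, along with processed signals, the background-subtracted, dye-normalized intensity of each channel. Dye normalization assumes that most genes do not differ. The deposited series table of log10 values was identical to the scanner ratios (largest difference 0).

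Ratios were turned to male over female or older over younger by the labelled dyes, put on the log2 scale and averaged over spots of a probe (43020 non-control spots, 39429 probes, 26055 named through RefSeq accessions). Members were fitted with all probes in limma 3.58.1 (R 4.3.3) with 7 comparison coefficients and a dye term, with Benjamini-Hochberg adjustment of p over probes and comparisons together, or within each interaction. The scripts were tested on simulated data. Precision is limited by 2 arrays per comparison. The labels give 2 replicate pools per group but not that they were reused: with them reused, the 4 ratios of a loop sum to 0, and the 2 sides of the loop, each taken as replicate 1 minus replicate 2 so that group differences cancel, correlated at r = 0.853 (3 wk) and 0.84 (4 wk) over 22094 bright probes. P-values therefore measure the spread between arrays of a few pools. Levels per pool take equal numbers as the same pool. All probes of a member are reported, a gene with several by its brightest, with the 3 genes of highest correlation beside each. Members, gene lists and tests were chosen with earlier results of these data known. A gene of the regulator list is not reported here and is in none of its counts. Alternatives were other backgrounds, normalizations, blocks, thresholds and leaving out each array. The probe sequences came from the study's supplementary table.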

Additional observations from a re-analysis of the deposited data

Results flagged for a closer look

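The change with age differed between the sexes, by the test of the difference itself, for 4 member probes. From 3 to 8 wk the log2 change of males minus that of females was -3.88 for Cyp2a22, -2.65 for Cyp2g1, and -2.33 (A_55_P2007326) and -2.0 (A_52_P9703) for Cyp2a4. From 4 to 8 wk it was -3.07 for Cyp2a22. Both replicates had the same sign in each. With normexp and loess the Cyp2a22 values were -1.96 and -1.92 (adjusted p = 0.0289 and 0.0474).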

How the results depend on the processing

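The counts of called member probes in M8/F8, M8/M3, M8/M4 and F8/F3 stayed within 1.5 times under all alternatives but those named here. With the replicate number as a block, which pairs arrays of like number, the F8/F4 count went from 1 to 0 and the 3 to 8 wk interaction to 3, the lost call of the latter being the second Cyp2a4 probe, and no other count changed. With the slide as a block M4/F4 had 1 and the 3 to 8 wk interaction 2, beside 281 (from 319) and 727 (from 850) over all probes. With 6 group means in place of 7 comparisons, M8/M3 had 2 (Cyp2a22 and Cyp2g1, both lower). M8/M4 also had 2 (Cyp2a22 lower and Cyp2a12 higher). F8/F4 had 4 (3 higher and Cyp2a22 lower) and the 4 to 8 wk interaction 2 (Cyp2a22 and Cyp2g1, both below 0). Calls over all probes rose too, from 1433 to 1859 in F8/F4 and from 364 to 1228 in that interaction. In M8/M3 they rose from 4255 to 4766 and in M8/M4 from 2675 to 3178. A fold threshold of 2 left 0 in F8/F4, beside 620 (from 1433) over all probes. The error-weighted average gave 1 in M3/F3 and 3 in F8/F4, beside 135 (from 105) and 1573 (from 1433) over all probes. At an unadjusted p below 1e-04, M4/F4 had 0, M8/F8 2, F8/F4 0 and the 3 to 8 wk interaction 2. Calls over all probes fell from 319 to 77 in M4/F4, from 1469 to 591 in M8/F8 and from 1433 to 471 in F8/F4. In the 3 to 8 wk interaction they fell from 850 to 301. Adjustment within each comparison gave 1 in M4/F4, beside 149 (from 319) over all probes. Without 1 array at a time, M4/F4 had 0 to 4, F8/F4 0 to 1 (without either M8/F8 array the 1 was Cyp2a22, lower) and the 3 to 8 wk interaction 2 to 4. Where counts fell without an array, fewer samples entered the fit, and elsewhere the cause was not tested.

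Signs turned only for values that were not called. Cyp2a12 in F8/F4 was 0.04 with normexp and loess and 0 with background-subtracted intensities and loess. Without 1 array, Cyp2a12 ranged from -0.13 to 0.51 in M3/F3, -0.08 to 0.34 in M8/F8, -0.06 to 0.02 in F8/F4 and -0.39 to 0.29 in the 3 to 8 wk interaction. Cyp2g1 ranged from -0.13 to 0.54 in M3/F3 and -0.43 to 0.25 in M8/M4. The Cyp2a4 probe A_55_P2007326 ranged from -0.08 to 0.36 in M8/M3 and -0.39 to 0.53 in M8/M4, and A_52_P9703 from -0.24 to 0.68 in M8/M4. Signal over background limits Cyp2a22 in 8 wk males, where 1 of 6 channels was not well above background. Requiring both groups above background removed its M8/F8 call.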
